A study of Drosophila mojavensis with 172 samples.

Results

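The 40 transcripts described here are those of Drosophila mojavensis whose level was higher in flies from Las Bocas (LB) than in flies from Punta Prieta (PP) at every one of 13 stages of life, ranked by the stage at which they differed least. They were taken from 14528 transcripts on the array. At each stage the mean of the Las Bocas groups on both diets was set against the mean of the Punta Prieta groups on both diets, and the 40 transcripts with the largest lowest difference were kept. In all, 45 transcripts (0.310%) had a difference above 0 in favour of Las Bocas at all 13 stages, and 123 (0.847%) had one in favour of Punta Prieta. The measured difference between the populations chose these transcripts, so it is given below as a description, without a test. Tests are given for diet, for the dependence of the population difference on diet, and for changes between stages, which the rule did not use. Groups differ in their number of arrays, and the choice can lean on the noise of small groups. These contrasts are therefore not fully independent of the choice.

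The study measured RNA of wild-type animals, with no tissue named in the labels, on 172 one-colour arrays in 54 groups of population, diet and stage. Las Bocas flies, from Sonora, have a fly source marked 2009 and gave 82 arrays. Punta Prieta flies, from Baja California, have one marked 2008 and gave 90 arrays, so the year of the source and the population cannot be told apart. Flies of each population were raised on laboratory medium made from organ pipe (OP, 75 arrays) or agria (AG, 97 arrays) cactus, and for eggs the diet is that of the mothers. The stages were eggs of 6 hours (E6), larvae of the first, the second and the third instar (L1, L2, L3), early and late pupae (EP, LP) and adult females of 0, 3, 6, 10, 14, 18 and 24 days (0D to 24D). No sex is given for eggs, larvae and pupae. Females of 4 days were measured in Punta Prieta only, on 1 array for each diet, and were not used to choose the transcripts. A group held 1 to 5 arrays, and 8 groups held 1. Each value is a log2 intensity made with RMA by the authors, so a difference of 1 is a change by a factor of 2 in the reported signal. The lowest value in the table was 7.25 and the highest 15.93. The median of an array, between 10.96 and 11.48, averaged 11.25 in Las Bocas and 11.26 in Punta Prieta. In RNA of many cell types together, fewer cells of a type and less RNA per cell cannot be told apart.

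Drosophila mojavensis is a desert fly that feeds and breeds in rotting cactus tissue. Its populations use different cacti in different regions: mainland Sonoran flies breed largely in organ pipe, and flies of the Baja California peninsula largely in agria. The rots differ in their plant compounds, yeasts and bacteria, and larvae and adults meet them through feeding, detoxification and smell. The array's transcript identifiers matched none of the annotated genes given with the data, so the transcripts are named by identifier and no function is given to any of them.

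Some arrays stood apart from their labels. For replicate 1 of 14-day females of Las Bocas on agria, 1 label gives 10 days and the others 14 days. It was kept at 14 days, and without it the rule chose the same 40 transcripts. Over all transcripts, 13 arrays correlated better with another stage than with their own by more than 0.05 in r. Of these, 10 were larval arrays nearest another larval instar. The others were replicates 2 and 3 of late pupae of Punta Prieta on agria, nearest early pupae and L1 larvae, and replicate 4 of 0-day females of Las Bocas on agria, nearest L2 larvae. A further 5 arrays lay nearer the other population, both on the 40 transcripts and on the 40 transcripts chosen the same way for Punta Prieta. Each array was placed on a scale on which the Punta Prieta mean of its stage is 0 and the Las Bocas mean is 1, with the array left out of both means, so the scale differs from array to array. On it, Las Bocas arrays had a median of 0.95 and Punta Prieta arrays a median of 0.047 on the 40 transcripts. The Las Bocas arrays that lay nearer Punta Prieta were late pupae on agria, replicate 2, at -0.86, and 14-day females on agria, replicate 3, at 0.025. The Punta Prieta arrays that lay nearer Las Bocas were late pupae on agria, replicate 1, at 2.04, late pupae on organ pipe, replicate 2, at 1.53, and 6-day females on agria, replicate 5, at 0.79. On the 40 transcripts alone, 3 more late pupal arrays did not follow their labels. The other Las Bocas late pupal arrays lay at -0.61 and -0.16, and replicate 3 of Punta Prieta on agria lay at 2.76. On the Punta Prieta list these 3 arrays lay at 1.96, 1.66 and -0.53, on the side of their labels. The remaining Punta Prieta late pupal arrays followed their labels on the 40 transcripts, between -1.36 and 0.17. At other stages, further Las Bocas arrays lay below the dividing position of 0.5 on the 40 transcripts. They were eggs on agria, replicate 1 (0.35), and on organ pipe, replicate 4 (0.35). L2 larvae (0.31) and 24-day females (0.42), each on agria, replicate 1, were the others. The single Punta Prieta array of L3 larvae on organ pipe lay above it, at 0.59. On the Punta Prieta list these all followed their labels. The 5 arrays nearer the other population on both lists were picked out by the values themselves. A population difference without them is larger by construction in part. All arrays were kept under their labels, and the values that moved most without those 5 are given beside the results.

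The words higher at every stage hold only for the sign of the difference of means. The lowest difference reached 0.3 in 4 of the 40 transcripts and 0.1 in 11, and was under 0.05 in 21. The transcripts first by lowest difference were FBtr0169038, with 0.47 (at 14 days), and FBtr0168456, with 0.35 (in late pupae). In late pupae the sign of both turned on 1 array. Without replicate 1 of late pupae of Las Bocas on agria the lowest difference was -0.063 for FBtr0169038 and -0.12 for FBtr0168456. That removal leaves replicate 2, an array nearer the other population, alone in its group. Of 164 removals of 1 array, 163 left each of these transcripts above 0 at all stages. The last of the 40 were FBtr0163764, with 0.0092, and FBtr0175018, with 0.0084. Just outside were FBtr0164841, with 0.0058, and FBtr0165956, with 0.0046. The list thus has no gap at its end. The SD within groups, pooled over all 52 groups of the 13 stages, ran from 0.21 to 0.70 over the 40 transcripts, with a median of 0.39 against 0.36 over all transcripts. In 0 of the 40 did the lowest difference exceed the transcript's own SD within groups (2 without the 5 arrays nearer the other population). The mean difference over the stages exceeded that SD in 21.

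Averaged over the 13 stages, the difference of Las Bocas minus Punta Prieta had a median of 0.39 over the 40 transcripts, against 0.00091 over all transcripts. It ran from 0.15 to 1.92. It reached 1 in 3 of the 40 (6 of all transcripts) and 0.5 in 15 (51 of all transcripts), so a large mean difference did not by itself place a transcript on the list. Taken for each diet by itself, the difference favoured Las Bocas in 18 to 25 of the 26 combinations of diet and stage, with a median of 23. None of the 40, and none of the 14528, favoured Las Bocas in all 26, and the lowest single difference among the 40 was -1.30. By phase, the median difference was 0.41 in eggs, 0.33 in larvae, 0.26 in pupae and 0.45 in adult females. The largest difference of a transcript fell in adult females for 27 of the 40, at 10 days for 15 of them, in larvae for 10, in pupae for 2 and in eggs for 1. The lowest fell most often in L1 larvae, for 9 transcripts, and in late pupae, for 8.

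**Figure D1:**
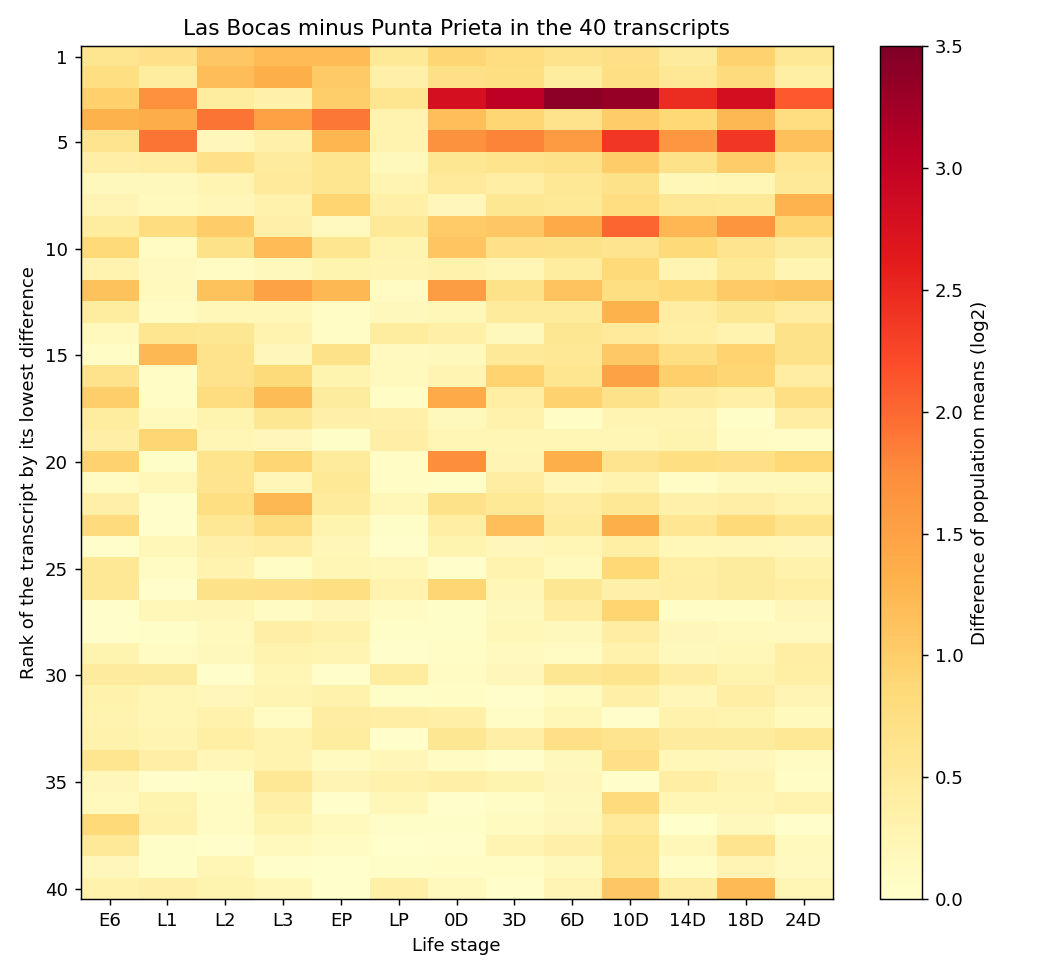
Difference of population means (Las Bocas minus Punta Prieta, log2, colour) for the 40 transcripts, one per row in order of their lowest difference, at 13 stages (columns). The rows of FBtr0167365 and FBtr0167366, near the top, are darkest in adult females, where FBtr0167365 reached 3.39 at 6 days, and the column of late pupae is pale, with a largest difference of 0.59 (1.67 without the arrays nearer the other population).

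Averaged on each array, the 40 transcripts showed how evenly the gap ran through life and where it closed. In eggs the mean level was 11.05 ± 0.20 in Las Bocas (SD, n = 7) and 10.57 ± 0.11 in Punta Prieta (SD, n = 9). It was highest in both populations in L1 larvae, at 12.21 ± 0.10 in Las Bocas (SD, n = 8) and 11.85 ± 0.05 in Punta Prieta (SD, n = 6). L3 larvae averaged 12.15 ± 0.06 in Las Bocas (SD, n = 9) and 11.61 ± 0.07 in Punta Prieta (SD, n = 6). The populations did not overlap at any of these stages. The choice of the transcripts favours such a separation of their mean, so nothing is read from it. At 10 days, where the gap was widest, the mean level was 11.24 ± 0.27 in Las Bocas and 10.47 ± 0.08 in Punta Prieta (SD, n = 6 each). At 24 days it was 11.09 ± 0.16 in Las Bocas and 10.62 ± 0.05 in Punta Prieta (SD, n = 3 each).

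Late pupae and 14-day females were the stages at which the mean levels overlapped. Late pupae of Las Bocas averaged 11.65 ± 0.30 (SD, n = 3) and those of Punta Prieta 11.47 ± 0.47 (SD, n = 8). All 3 Las Bocas arrays lay inside the range of Punta Prieta there, which ran from 11.00 to 12.21. Without the arrays nearer the other population, late pupae averaged 11.82 in Las Bocas (n = 2) and 11.33 ± 0.46 in Punta Prieta (SD, n = 6), and the difference was above 0 in 35 of the 40 transcripts and below 0 in the others. Without the arrays nearer another stage it was above 0 in late pupae in 36. At 14 days the mean level was 11.05 ± 0.23 in Las Bocas and 10.56 ± 0.12 in Punta Prieta (SD, n = 5 each), and 1 Las Bocas array, at 10.68, lay below the highest Punta Prieta array, at 10.73.

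**Figure D2:**
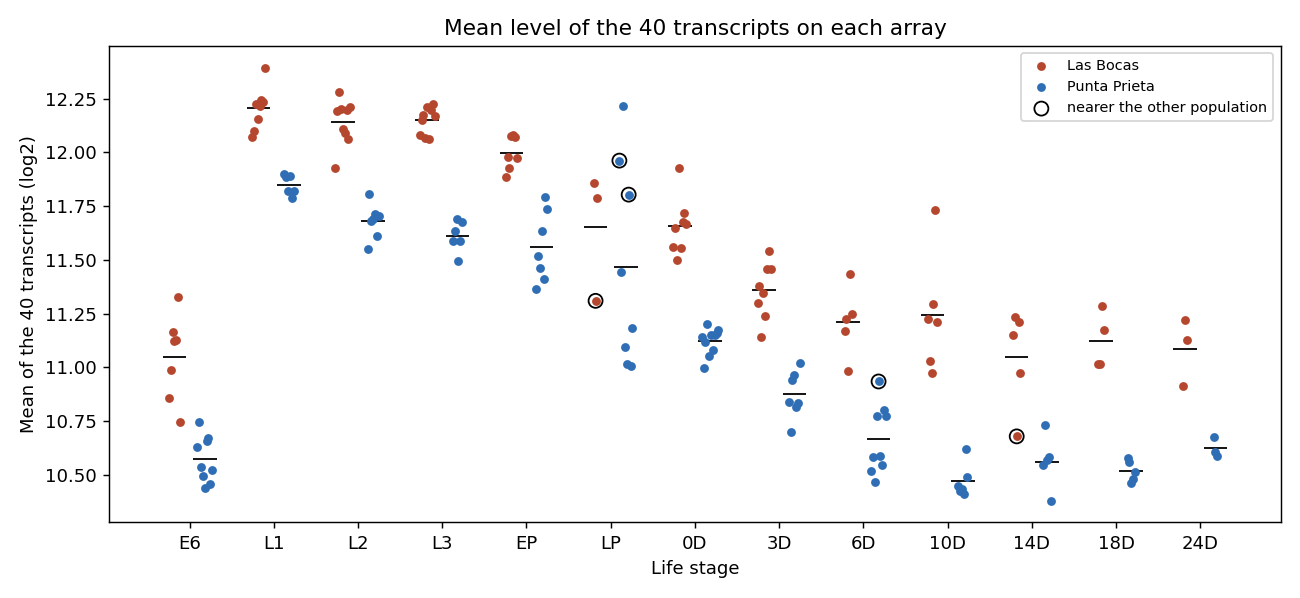
Mean log2 level of the 40 transcripts on each of 170 arrays (points) by stage, Las Bocas left of Punta Prieta, with the mean over arrays as a bar. Circles mark the 5 arrays nearer the other population, of which 3 are late pupae. In 11 of the 13 stages every Las Bocas point lies above every Punta Prieta point, a separation that the choice of the transcripts favours.

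Complete separation of single transcripts was less common than that of their mean. Every Las Bocas array lay above every Punta Prieta array in 68 of the 520 combinations of transcript and stage (13.1%), against 0.895% over all transcripts. Since the choice of the transcripts used this difference, nothing is read from that contrast. The count was highest in 10-day females, with 15 of 40 (3.73% of all transcripts), in 18-day females, with 15 (3.25%), and in 24-day females, with 13 (3.03%). Among the other adult ages it was 2 in 0-day (0.124%), 5 in 3-day (0.138%), 1 in 6-day (0.151%) and 3 in 14-day females (0.406%). Before adulthood it was 4 in eggs (0.151%), 0 in L1 larvae (0.193%), 2 in L2 larvae (0.0344%) and 3 in L3 larvae (0.303%), 5 in early pupae (0.0895%) and 0 in late pupae (0.0344%). The stages differ in their number of arrays, and fewer arrays separate more often. Of the 40 transcripts, 25 separated the populations completely at 1 stage or more (62.5%, against 8.94% of all transcripts) and 15 at none. The most stages for any of them was 6, for FBtr0168456 and FBtr0167365. Without the arrays nearer the other population, the count was 13 in 14-day females (1.56% of all transcripts) and 4 in 6-day females (0.241%). In late pupae it stayed at 0, against 8.72% of all transcripts, with 2 Las Bocas and 6 Punta Prieta arrays left.

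FBtr0167365 had the largest mean difference of the 40 and the one that varied most over the stages (SD over stages 1.14). In eggs its lowest, median and highest levels were 10.78, 11.18 and 11.42 in Las Bocas, against 9.92, 10.10 and 10.57 in Punta Prieta. In L3 larvae they were 13.78, 14.97 and 15.30 in Las Bocas, against 14.24, 14.67 and 15.16 in Punta Prieta. The egg ranges did not overlap, while those of L3 larvae did almost entirely, and the difference of means there was its lowest, 0.34. In 0-day females it read 11.95, 12.42 and 13.06 in Las Bocas, against 9.33, 9.80 and 10.03 in Punta Prieta. In 3-day females it read 13.46, 13.93 and 14.09 in Las Bocas, against 10.44, 10.51 and 11.92 in Punta Prieta. In 10-day females it read 13.66, 14.21 and 14.92 in Las Bocas, against 10.12, 11.18 and 12.37 in Punta Prieta. At these 3 ages no array of one population reached the range of the other. In that order of age, the difference of means was 2.80, 3.04 and 3.33.

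The other adult ages of FBtr0167365 turned on single arrays. At 6 days the Las Bocas arrays read 13.92, 14.24, 14.30, 14.32 and 14.74, while the 9 Punta Prieta arrays had a lowest level of 10.11, a median of 10.65 and a highest of 14.29. The highest Punta Prieta array was agria replicate 5, and the next highest read 11.32. The difference of means was 3.39, and 3.75 without that array. At 14 days the Las Bocas arrays read 10.63, 13.52, 13.66, 14.07 and 14.36, and the Punta Prieta arrays 10.32, 10.43, 11.07, 11.10 and 12.05. The lowest Las Bocas array, agria replicate 3, lay among the Punta Prieta arrays, and the difference was 2.47 with it and 3.01 without it. At 18 days the Las Bocas arrays read 13.41, 13.73, 14.10 and 14.25, and the Punta Prieta arrays 10.72, 11.00, 11.22, 11.59 and 11.97. At 24 days they read 13.88, 13.91 and 14.70 in Las Bocas, and 11.53, 12.04 and 12.61 in Punta Prieta. The populations did not overlap at either of these ages.

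FBtr0167366, whose identifier follows that of FBtr0167365, had the second most variable difference (SD over stages 0.76). Its difference was 0.18 in L2 larvae, where its median level was 13.79 in Las Bocas and 13.40 in Punta Prieta. It was 1.92 in L1 larvae, where its lowest, median and highest levels were 11.60, 12.73 and 13.82 in Las Bocas, against 10.17, 10.76 and 11.98 in Punta Prieta. It was 2.37 at 10 days, where they were 12.11, 12.83 and 13.29 in Las Bocas, against 9.98, 10.44 and 11.42 in Punta Prieta. The ranges did not overlap at 10 days and overlapped by 1 array of each population in L1 larvae. At 6 days the same Punta Prieta array that stood high for FBtr0167365 read 12.71 for FBtr0167366, above the Las Bocas median of 11.97. At 14 days the same Las Bocas array that stood low read 10.41, below the Punta Prieta median of 10.57. Without these arrays the difference was 1.82 at 6 days, against 1.58 with them, and 1.95 at 14 days, against 1.64.

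**Figure D3:**
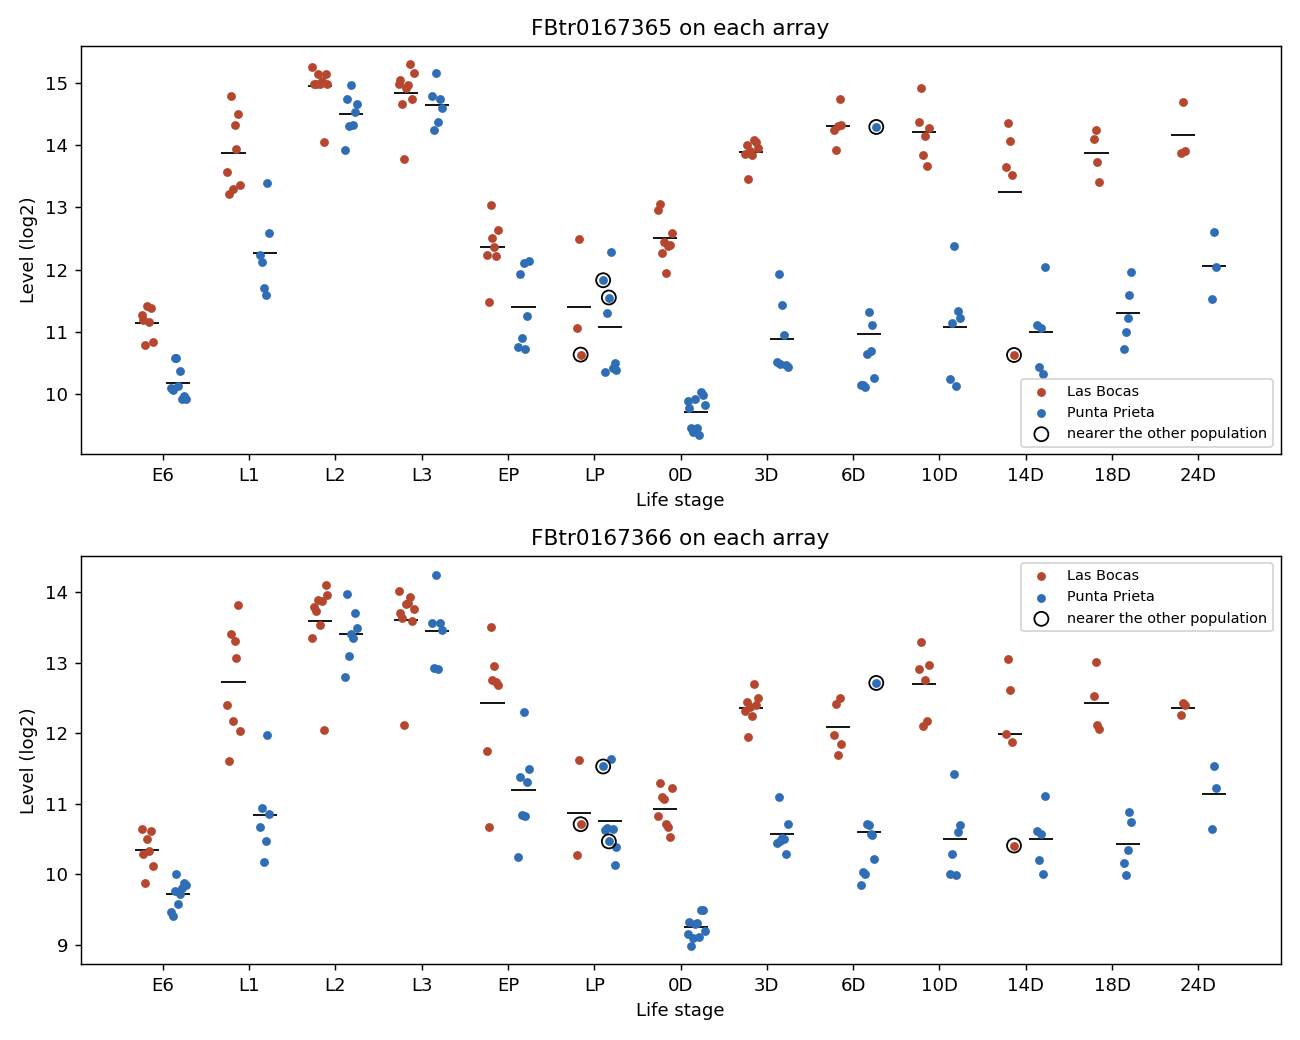
Log2 level of FBtr0167365 (top) and FBtr0167366 (bottom) on each array (points) by stage, Las Bocas left of Punta Prieta, with the mean over arrays as a bar and circles on the arrays nearer the other population. In second and L3 larvae both transcripts are high in both populations and their ranges overlap. At 0, 3, 10, 18 and 24 days the ranges are apart.

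FBtr0166344 varied least in its difference (SD over stages 0.11), which ran from 0.027 in late pupae to 0.40 at 24 days, at a mean level of 8.76 in Las Bocas and 8.57 in Punta Prieta. FBtr0170321 came next (SD over stages 0.12), with 0.037 in eggs to 0.44 in L3 larvae, at a mean level of 12.95 in Las Bocas and 12.73 in Punta Prieta. Neither difference reached 0.5 at any stage. FBtr0168456, second by lowest difference, had lowest, median and highest levels of 10.76, 11.21 and 11.38 in Las Bocas eggs, against 10.14, 10.41 and 10.65 in Punta Prieta eggs. In L3 larvae the levels of FBtr0168456 were 10.55, 11.45 and 12.13 in Las Bocas, against 9.63, 9.86 and 10.33 in Punta Prieta. Neither stage overlapped. FBtr0169038, first by lowest difference, overlapped between the populations at all 13 stages, as in eggs, with 10.57, 11.26 and 11.66 in Las Bocas against 10.18, 10.58 and 10.95 in Punta Prieta.

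The 4-day females of Punta Prieta had no part in the choice. No 4-day Las Bocas females were analysed here, so each array was set against Las Bocas females of 3 and 6 days on the same diet. Those Las Bocas arrays did enter the choice, which favoured transcripts high on them, so the counts below are partly fixed by the choice and are a description. On organ pipe, the mean level of the 40 transcripts was 10.40 on the 4-day Punta Prieta array, against 11.42 and 11.34 in Las Bocas females of 3 and 6 days. All 40 lay below both Las Bocas means (42.7% of all transcripts). On agria it was 10.73, against 11.29 and 11.13, and 29 of the 40 lay below both (34.0% of all transcripts). The same 29 lay below on both 4-day arrays, as did 22.7% of all transcripts. FBtr0167365 read 10.59 on organ pipe, against 13.99 and 14.33 in Las Bocas, and 11.04 on agria, against 13.81 and 14.29. FBtr0169038, first by lowest difference, read 10.18 on agria, against 10.08 and 10.18 in Las Bocas, and so was not lower there. With 1 array for each diet, these values have no replicate check.

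The 40 transcripts were of ordinary brightness and changed much through life. Their median percentile of mean level among all transcripts was 52.2, from 0.902 to 86.5, with 11 in the top 25% and 9 in the lowest 25%. The distance between their highest and lowest stage means, averaged over populations and diets, had a median of 2.42, against 1.97 over all transcripts. It reached 2 in 26 of the 40 (48.8% of all transcripts) and 3 in 10 (15.5%). FBtr0167365 had the largest distance, 4.09, between 14.75 in L2 larvae and 10.66 in eggs. FBtr0167610 followed, with 3.73, between 13.38 in L2 larvae and 9.65 at 6 days. FBtr0164942, with 0.63, and FBtr0166344, with 0.64, were the flattest. The stage of the highest mean was a larval one in 21 of the 40 (23.1% of all transcripts), and L1 larvae in 13 of them (15.9%). It was a pupal one in 8 (20.6%), an adult age in 10 (28.7%) and eggs in 1 (27.5%). Eggs held the lowest mean of 18 (16.9%).

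**Figure D4:**
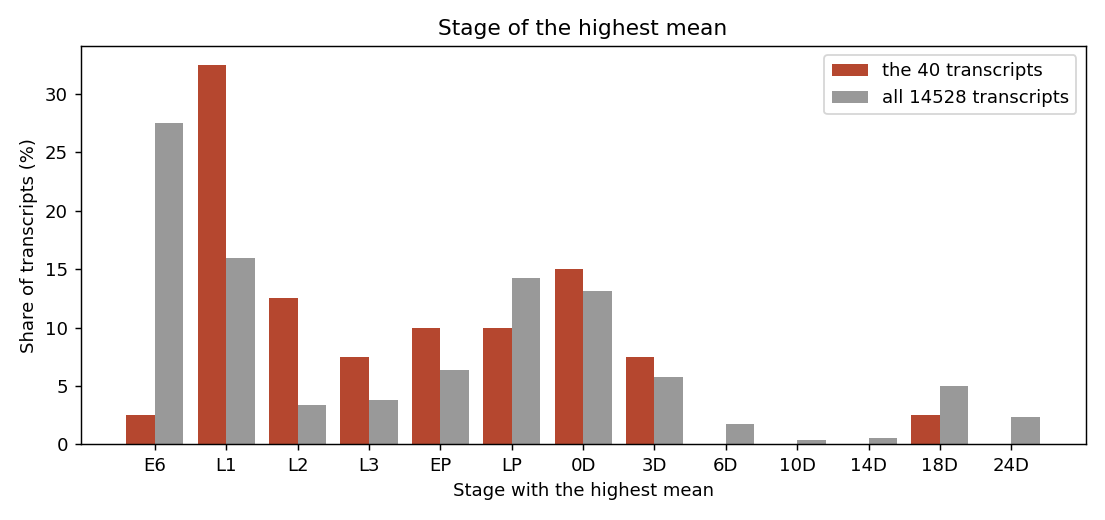
Share of transcripts (%) by the stage of their highest mean, for the 40 transcripts (left bars) and all 14528 transcripts (right bars). L1 larvae hold 13 of the 40, against 15.9% of all transcripts, and eggs hold 1, against 27.5%.

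Tests of stage changes, averaged over the 4 combinations of population and diet, used limma with Benjamini-Hochberg adjustment over all 14528 transcripts. The threshold was an adjusted p under 0.05 together with a log2 change of at least 1 in size. The labels do not state whether replicates were grown apart, so every p-value reflects the variation among these arrays, part or all of which may be technical. From eggs to L1 larvae 25 of the 40 transcripts were called (58.2% of all transcripts), of which 23 rose (29.9%) and 2 fell (28.3%). The median change was 1.56 over the 40 and 0.05 over all transcripts. Centring each array on its median gave 1.36 over the 40 and -0.14 over all transcripts, with 25 called again. FBtr0167610 rose most: its 4 group means lay between 12.42 and 13.52 in L1 larvae and between 10.02 and 10.46 in eggs, a change of 2.79 ± 0.16 (SE, limma adjusted p = 1.69e-33). FBtr0161961 rose by 2.76 ± 0.26 (SE, adjusted p = 1.03e-18). FBtr0169528 fell by 1.36 ± 0.10 (SE, adjusted p = 1.78e-25) and FBtr0168865 fell by 1.15 ± 0.14 (SE, adjusted p = 4.30e-13). The call of FBtr0168865 is lost without replicate 2, where the change was -0.99.

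From L3 larvae to early pupae 4 of the 40 were called, all downward (10.5% of all transcripts were called, 5.63% upward and 4.91% downward). FBtr0167365 averaged 11.82 in early pupae and 14.65 in L3 larvae, a change of -2.83 ± 0.24 (SE, adjusted p = 1.74e-20). FBtr0167366 averaged 11.76 in early pupae and 13.41 in L3 larvae, a change of -1.65 ± 0.21 (SE, adjusted p = 2.21e-11). FBtr0168213 and FBtr0175366, the other called transcripts, named after their values were seen, changed by -1.43 and -1.25. The remaining 36 transcripts did not pass, and the median change over the 40 was 0.0021.

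From late pupae to 0-day females 15 were called (30.8% of all transcripts), of which 5 rose (16.1%) and 10 fell (14.8%). The median change was -0.31 over the 40, against 0.19 over all transcripts. FBtr0175018, the last of the 40 by its lowest difference, rose most. Its 4 group means lay between 11.52 and 12.15 in 0-day females and between 8.45 and 9.30 in late pupae, and the change was 2.94 ± 0.18 (SE, adjusted p = 1.14e-29). Within 0-day females of Las Bocas on agria, its arrays read 12.26, 12.15, 12.34 and 9.69, the lowest being the array nearest L2 larvae. FBtr0175366 rose by 2.00 ± 0.19 (SE, adjusted p = 4.28e-18). FBtr0167610, FBtr0172679 and FBtr0175434, named after their values were seen, rose by 1.60, 1.44 and 1.10. FBtr0164793 changed by -1.56 ± 0.23 (SE, adjusted p = 1.60e-09) and FBtr0169038 by -1.40 ± 0.25 (SE, adjusted p = 4.62e-07). The call of FBtr0169038 is lost without replicate 1, where the change was -0.95.

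From 0-day to 3-day females 4 were called (5.73% of all transcripts), of which 2 rose (3.6%) and 2 fell (2.13%). FBtr0167366 averaged 11.46 at 3 days and 10.09 at 0 days, a rise of 1.38 ± 0.18 (SE, adjusted p = 3.12e-11). FBtr0167365 averaged 12.38 at 3 days and 11.11 at 0 days, a rise of 1.27 ± 0.20 (SE, adjusted p = 3.30e-08). FBtr0167610 averaged 10.23 at 3 days and 13.23 at 0 days, a change of -3.00 ± 0.15 (SE, adjusted p = 1.14e-37). FBtr0174946 changed by -1.20 ± 0.12 (SE, adjusted p = 9.91e-17).

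FBtr0167610 thus passed the test at 3 of the 4 steps. Its 0-day arrays in Las Bocas read 13.46, 13.59, 13.19 and 13.16 on agria and 13.32, 12.91, 13.73 and 13.33 on organ pipe. Its 3-day arrays there read 9.89, 10.51, 9.61 and 10.52 on agria and 10.40, 10.29, 11.04 and 10.49 on organ pipe. In Punta Prieta the 0-day group means were 13.14 on agria and 13.09 on organ pipe, against 3-day means of 10.09 and 10.14. The 2 ages did not overlap in either population, while the difference between the populations at these ages was far smaller than the change between them.

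Across adult ages of 3 to 24 days, the linear trend of the group means was called at an adjusted p under 0.05 in 17 of the 40 transcripts (37.9% of all transcripts), of which 2 rose (20.4%) and 15 fell (17.5%). FBtr0174946 fell most, by 0.0728 ± 0.0069 per day (SE, adjusted p = 2.55e-16), which is -1.53 over 21 days. FBtr0164734 fell by 0.0555 ± 0.0059 per day (SE, adjusted p = 8.21e-14), or -1.17 over 21 days. The rises were small and close to the threshold. For FBtr0167365 the daily rise was 0.0285 ± 0.0118 (SE, adjusted p = 0.0459). For FBtr0161389 it was 0.0140 ± 0.0058 (SE, adjusted p = 0.0484). Both calls are lost without any one of replicates 1, 2 and 4 and after repeated quantile normalization, where the adjusted p was 0.0640 and 0.0826.

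Diet was compared as organ pipe minus agria. Averaged over both populations and all 13 stages, 0 of the 40 transcripts were called by limma (0.441% of all transcripts, 0.385% upward and 0.0551% downward), with 4 at an unadjusted p under 0.05 (10.9% of all transcripts). The estimated changes of the 40 ran from -0.12 to 0.22 with a median of 0.05, against -0.01 over all transcripts, and 32 of the 40 were above 0. The share above 0 over all transcripts is not given here, and the choice can lean on the noise of small groups. Nothing is read from that count.

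In larvae 2 of the 40 were called for diet (4.74% of all transcripts), both lower on organ pipe (3.88% downward and 0.854% upward over all transcripts). FBtr0175366 averaged 12.03 on organ pipe and 12.49 on agria, a difference of -0.47 ± 0.15 (SE, adjusted p = 0.0460). Its L1 larvae of Las Bocas read 11.77, 11.69, 12.79 and 11.32 on organ pipe, against 12.98, 13.42, 12.45 and 13.10 on agria. Of these agria arrays, replicates 1, 2 and 4 were nearest L2 larvae, and the remaining array, at 12.45, lay inside the organ pipe range. For FBtr0175366, L2 larvae of Las Bocas went the other way, with 13.51, 13.67, 13.76 and 13.39 on organ pipe. On agria they read 13.69, 13.15, 12.37, 11.06 and 12.72, where the lowest array was nearest L1 larvae. The diets overlapped at both stages. FBtr0171257 averaged 11.51 on organ pipe and 11.83 on agria, a difference of -0.32 ± 0.09 (SE, adjusted p = 0.0298). The single array of L3 larvae of Punta Prieta on organ pipe read 10.83 for FBtr0171257, against 11.62, 11.84, 11.64, 12.03 and 11.88 on agria. Both calls are lost without the arrays nearer another stage (adjusted p = 0.155 for FBtr0175366 and 0.0767 for FBtr0171257), and without any one of replicates 1, 2 and 4. Calls over all transcripts fell too, to 2.91% without the arrays nearer another stage. They fell to 2.84%, 0.158% and 0.2% without replicates 1, 2 and 4, in that order.

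In adult females 1 of the 40 was called for diet (1.84% of all transcripts), upward (1.61% upward and 0.227% downward over all transcripts). FBtr0168380 averaged 12.30 on organ pipe and 12.00 on agria, a difference of 0.30 ± 0.06 (SE, adjusted p = 0.00242). The estimated diet difference was 0.32 in Las Bocas and 0.29 in Punta Prieta. Its 3-day females of Las Bocas read 12.81, 13.22, 13.44 and 13.07 on organ pipe, against 12.32, 12.00, 12.54 and 12.73 on agria. Its 6-day females of Punta Prieta read 12.21, 11.94, 12.35 and 12.53 on organ pipe, against 11.23, 11.72, 11.17, 12.21 and 11.35 on agria. The diets did not overlap at 3 days in Las Bocas and overlapped by 1 agria array at 6 days in Punta Prieta. At 0 days the order was not the same in Las Bocas, with 13.55 ± 0.25 on organ pipe and 13.74 ± 0.11 on agria (SD, n = 4 each). At 24 days the single organ pipe array of Las Bocas read 11.56 for FBtr0168380, against 11.74 and 11.73 on agria. FBtr0168380 passed the test for adult diet under every alternative run.

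Whether the population difference itself depended on diet was tested as the difference on organ pipe minus that on agria. Over all stages 0 of the 40 were called by limma (0.0895% of all transcripts), with 7 at an unadjusted p under 0.05 (8.66% of all transcripts). In adult females 0 were called (0% of all transcripts), with 4 at an unadjusted p under 0.05 (4.34%). The largest change over all stages was that of FBtr0175018, named after its values were seen. It did not pass, at 0.60 ± 0.15 (SE, adjusted p = 0.0567). Its estimated diet difference was 0.31 in Las Bocas and -0.29 in Punta Prieta. Over the 40, this quantity had a median of 0.09, against 0.01 over all transcripts. Organ pipe had fewer arrays than agria, so the choice may itself favour values above 0 here. Nothing is read from that median.

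**Figure D5:**
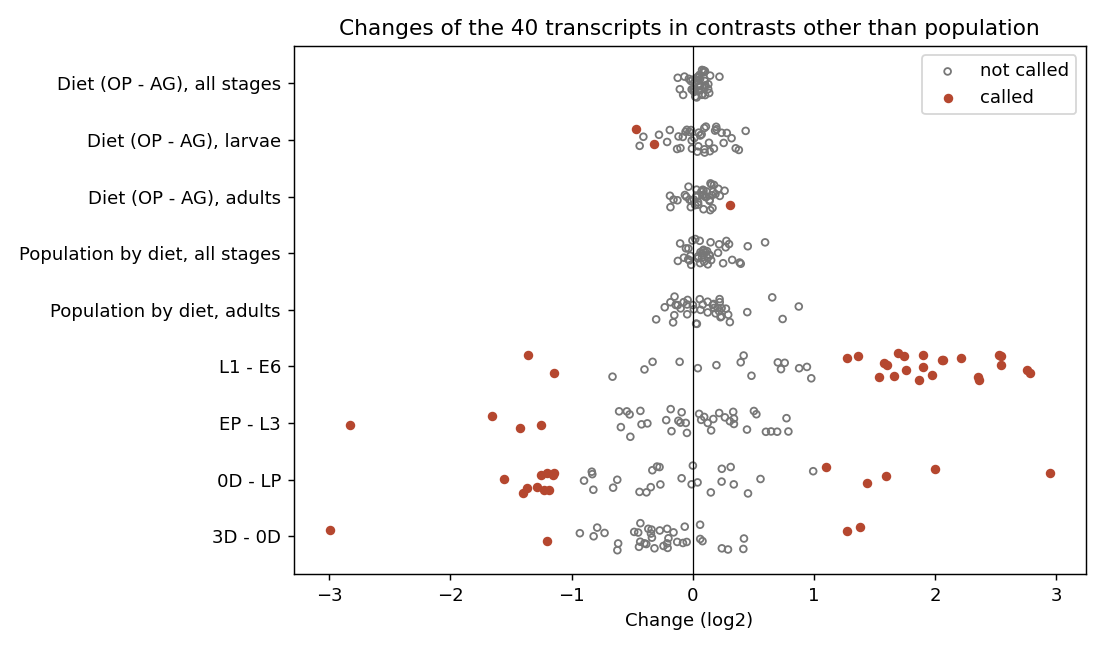
Log2 change of each of the 40 transcripts (points, spread vertically to be seen) in 5 contrasts of diet and 4 steps between stages, with called changes filled. Changes with diet stay between -0.47 and 0.44, with 3 called, and the population by diet values reach 0.87 with none called, while changes between stages reach 2.94 upward and -3.00 downward.

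How the 40 transcripts moved together from array to array was described on the deviations of 170 arrays from their group means. These deviations share the array and any staging of the animals on it, so the correlations are given without a test. Over the 780 pairs the median r was 0.088, against -0.008 over all transcript pairs, and 301 pairs were below 0. An r above 0.7 was found in 23 pairs (2.95%, against 1.36% of all transcript pairs) and above 0.5 in 56 pairs (7.18%, against 7.01%). Linking pairs with r above 0.7 joined 13 of the 40 into 3 groups. The other 27 transcripts were joined to none.

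The first group held 9 transcripts, FBtr0169038, FBtr0168456, FBtr0172631, FBtr0164793, FBtr0164801, FBtr0165219, FBtr0161961, FBtr0174013 and FBtr0173457. They shared a stage profile: 8 of the 9 were highest in L1 larvae and FBtr0173457 was highest in L3 larvae. The rule did not use the profile, but the linking used deviations that carry any staging of the animals. The shared profile may thus follow in part from the linking and is a description. The mean level of the group was 13.54 in Las Bocas and 13.22 in Punta Prieta in L1 larvae, and 12.34 in Las Bocas and 12.10 in Punta Prieta in late pupae. In 3-day females it was 10.89 in Las Bocas and 10.32 in Punta Prieta. Its population difference was widest in L3 larvae, at 1.20, and narrowest in late pupae, at 0.24. The highest correlation of any pair, 0.92, was between FBtr0165219 and FBtr0161961, and the leading pair of the 40, FBtr0169038 and FBtr0168456, had 0.88.

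The second group was FBtr0167365 with FBtr0167366, at r = 0.82. The pair differed from the first group in stage profile, being highest in L2 larvae and high again in Las Bocas females from 3 days. The third group was FBtr0162000 with FBtr0168778, at r = 0.76, both highest in L1 larvae, with mean differences between the populations of 0.63 and 0.61.

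The 40 transcripts chosen in the same way for Punta Prieta gave a measure of how large these differences are. The lowest difference had a median of 0.045 in the Las Bocas list, against 0.13 in the Punta Prieta list, where it ran from 0.71 down to 0.066. It exceeded the transcript's own SD within groups in 0 of the Las Bocas list, against 4 of the Punta Prieta list. The mean difference over stages had a median of 0.39 in favour of Las Bocas in the first list and of 0.44 in favour of Punta Prieta in the other, and reached 1 in 3 transcripts of the first, against 7. All Las Bocas arrays lay above all Punta Prieta arrays in 13.1% of the combinations of transcript and stage in the Las Bocas list, against 21.0% the other way round in the Punta Prieta list. The stage of the highest mean was a larval one in 21 of the Las Bocas list, against 10 of the Punta Prieta list, and eggs in 1, against 18. Both lists were chosen on these values, so these are descriptions.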

How the data were processed

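The authors deposited 1 table of log2 values for 14528 transcripts on 172 arrays, produced by RMA according to the submitters' processing notes. Which version, and over which arrays, is not given in the sources used here. Total RNA was turned into double-stranded cDNA carrying Cy3, per the labels' protocols. No scanner files were used here, so signal over background is unknown. Groups came from the labels. The transcripts, lists and contrasts were chosen with earlier results of these data known.

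Contrasts came from limma 3.58.1 (lmFit, eBayes; R 4.3.3), with 1 mean per group over all 172 arrays, 118 residual degrees of freedom, with Benjamini-Hochberg adjustment over all transcripts. Groups with 1 array took their error from the others. The fit was tested on simulated data. Descriptions used Python 3.11.15, pandas 2.3.3 and numpy 2.4.6.

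Named were the first and last 2 by lowest difference, the 2 just outside, the 2 called transcripts with the largest rise and fall in each contrast, and the extremes of stage range and of variation of the difference. Others were named after their values were seen. Alternatives changed scaling, arrays, replicates, weights, block and filter. Arrays nearer the other population, and each diet by itself, were added after the data were seen.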

Additional observations from a re-analysis of the deposited data

Results flagged for a closer look

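The mean level of the 40 transcripts and each of the 6 transcripts with the largest lowest difference were examined within each population and stage of at least 4 arrays, and 13 of 161 sets of arrays held an array far from the others by Dixon's test. For sets of like arrays, chance flags about 1 in 20. These sets pool both diets and share arrays between transcripts, so the count of 13 was not measured against that rate. For FBtr0167365, the 6-day Punta Prieta array on agria, replicate 5, read 14.29, against 11.32 for the next highest, and the same array read 12.71 for FBtr0167366, against 10.71 for the next highest. The 14-day Las Bocas array on agria, replicate 3, read 10.63 for FBtr0167365, against 13.52 for the next lowest. These are arrays nearer the other population, and the part that a mixed-up label may have was not tested. FBtr0167365 also had low arrays in Las Bocas L2 larvae (agria replicate 4, 14.06), L3 larvae (organ pipe replicate 2, 13.78) and 3-day females (agria replicate 2, 13.46). The first 2 of these arrays were also low for FBtr0167366, at 12.05 and 12.12, and both correlated better with L1 larvae than with their own stage. FBtr0168456 was low on Punta Prieta arrays on agria at 10 days (replicate 4, 8.63) and 14 days (replicate 3, 8.43). FBtr0172631 was low on the Punta Prieta early pupal array on agria, replicate 1, at 10.58. FBtr0173351 was high on Las Bocas arrays of L2 larvae (agria replicate 1, 10.76) and L3 larvae (organ pipe replicate 1, 10.47).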

How the results depend on the processing

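The rule chose again 20 of the 40 transcripts without the arrays nearer another stage, 13 without the 4 stages in which a group holds 1 array, 15 by the second lowest difference, 5 on agria arrays alone, 14 on organ pipe arrays alone, 17 without the arrays nearer another stage or the other population, and 18 to 34 without one replicate number. FBtr0169038, FBtr0167365, FBtr0167366, FBtr0164942 and FBtr0172679 were chosen under all 12 other ways of scaling, averaging or leaving out arrays that were listed for this rule. Of the 40, the difference stayed above 0 at all stages in 12 without replicate 1, 19 without replicate 4, 1 on agria arrays alone, and 6 under all 12. Over 164 removals of 1 array, 5 stayed above 0 at all stages every time. The most were lost without replicate 1 of late pupae of Las Bocas on agria, where 23 stayed above 0.

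With array weights, diet calls numbered 4 over all stages (9.86% of all transcripts), 8 in larvae (23.4%) and 13 in adult females (22.6%), and population by diet calls 4 over all stages (8.58%) and 1 in adult females (0.743%). Diet calls in larvae numbered 0 without the arrays nearer another stage (2.91%) and 4 without the arrays nearer the other population (6.26%). Without one replicate number they numbered 0 to 3 (0.158% to 7.78% of all transcripts). Calls for population by diet over all stages numbered 1 without the dimmest 25% of transcripts (31 of the 40 left, 0.285%) and 1 without the arrays nearer the other population (0.723%). Without one replicate number they numbered 0 to 1 (0% to 0.317% of all transcripts). Calls for age numbered 10 after repeated quantile normalization (31.3%) and 11 to 16 without one replicate number (32.5% to 37.7% of all transcripts). Without the 14-day array labelled with 2 ages they numbered 16 (37.5%), of which 1 rose (20.3%). The estimation of array weights stopped before it converged. Counts for the 4 stage steps stayed within 1.5 times under every alternative run, and no change of a named transcript reversed.

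Same-numbered arrays of a stage were compared in pairs, by their deviations from the group means. Over 194 such pairs the deviations had a median r of 0.00054, from -0.82 to 0.75, and 79 pairs were above 0.1. Arrays of different numbers were not compared, so a batch shared at some stages was not tested. With the replicate number as a block, diet calls in larvae numbered 4 (7.34%), and the age call of FBtr0161389 was lost (adjusted p = 0.0525). The number of arrays in a group limits the precision of every value.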
